A study of Mus musculus with 10 samples.

Results

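The 10 genes described here are genes of MHC class I antigen presentation, namely Nlrc5, H2-K1, H2-D1, B2m, Tap1, Tap2, Tapbp, Psmb8, Psmb9 and Psmb10. They were taken by gene symbol, and all 10 were found among the 29955 genes of the deposited count table. All 10 passed the filter on low counts, which left 12282 genes to test. Levels come from 10 RNA-seq libraries of Philadelphia chromosome-positive lymphoblastic leukaemia cells of the mouse, grown as a line whose driver is the p185 form of the fusion kinase BCR-ABL1. The groups were cells that resumed growth in dasatinib at step 16x of the dose escalation (n = 3), cells that did so at step 1x (n = 3), a line carried with the solvent DMSO to 16x (n = 1), a line carried with DMSO to 1x (n = 1) and the untreated parental line (n = 2). The dose steps are multiples of the IC90. Dasatinib is an inhibitor of ABL kinase and of SRC family kinases. All groups share the BCR-ABL1 line and its culture medium, and all derive from the parental line. The 2 parental and 2 DMSO libraries together are called drug-free (n = 4). Each DMSO group is a single library, so its spread between replicates was not measured. The libraries were made from cells of this line in culture, and how T cells would read the presented peptides was not measured.

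MHC class I molecules display peptides from proteins made inside the cell to CD8 T cells. The peptides are cut by the proteasome, in whose immune form Psmb8, Psmb9 and Psmb10 replace the standard catalytic subunits Psmb5, Psmb6 and Psmb7. The transporter formed by Tap1 and Tap2 carries them into the endoplasmic reticulum, where tapasin, encoded by Tapbp, helps to load them on a heavy chain (H2-K1 or H2-D1) paired with the light chain B2m. Nlrc5 is a transactivator that acts at the promoters of class I genes and of several genes of peptide supply, and interferon gamma is a known inducer of the whole set.

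Of the 10 genes, 7 lie on chromosome 17, in the order Tapbp, H2-K1, Psmb9, Tap1, Psmb8, Tap2 and H2-D1. Psmb9, Tap1, Psmb8 and Tap2 are direct neighbours, with 0 other protein-coding genes between them, whereas 67 separate Tap2 from H2-D1. Nlrc5 and Psmb10 lie on chromosome 8 and B2m on chromosome 2. Promoter windows of 300 bases (250 before to 50 after the start site) were taken from RefSeq on GRCm38.p6 and matched 8 of the 10 genes, all but Tap2 and Nlrc5. They were searched on both strands for the interferon-stimulated response element ISRE (GAAA, any 2 bases, GAAA), the gamma-activated site GAS (TTCNNNGAA), the CCAAT box (CCAAT) and the NF-kB motif. Of 32851 promoters, 3.44% held the ISRE letters, 8.30% the GAS letters, 37.4% a CCAAT box and 4.51% the NF-kB letters. The 5 windows printed are those of the light chain, both heavy chains, Tap1 (whose window overlaps that of Psmb9) and Psmb8, genes whose values are set side by side in the comparisons. Capitals mark the motifs.
B2m: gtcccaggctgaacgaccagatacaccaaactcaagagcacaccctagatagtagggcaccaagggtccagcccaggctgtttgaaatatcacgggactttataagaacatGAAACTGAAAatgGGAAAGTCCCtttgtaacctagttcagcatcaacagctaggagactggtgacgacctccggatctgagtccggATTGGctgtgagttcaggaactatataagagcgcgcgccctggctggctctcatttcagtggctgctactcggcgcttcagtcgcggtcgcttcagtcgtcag
H2-K1: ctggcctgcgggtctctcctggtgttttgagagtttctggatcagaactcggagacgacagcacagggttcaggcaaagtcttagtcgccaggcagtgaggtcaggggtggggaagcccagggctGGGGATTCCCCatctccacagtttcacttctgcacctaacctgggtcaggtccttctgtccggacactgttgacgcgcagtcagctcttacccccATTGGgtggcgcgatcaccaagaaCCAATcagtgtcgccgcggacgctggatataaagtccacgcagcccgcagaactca
H2-D1: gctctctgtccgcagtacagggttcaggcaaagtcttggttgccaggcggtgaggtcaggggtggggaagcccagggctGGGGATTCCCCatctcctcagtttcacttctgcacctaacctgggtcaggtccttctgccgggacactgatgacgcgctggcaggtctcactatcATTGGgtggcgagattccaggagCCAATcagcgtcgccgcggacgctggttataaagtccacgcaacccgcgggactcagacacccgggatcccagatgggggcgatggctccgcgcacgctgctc
Tap1: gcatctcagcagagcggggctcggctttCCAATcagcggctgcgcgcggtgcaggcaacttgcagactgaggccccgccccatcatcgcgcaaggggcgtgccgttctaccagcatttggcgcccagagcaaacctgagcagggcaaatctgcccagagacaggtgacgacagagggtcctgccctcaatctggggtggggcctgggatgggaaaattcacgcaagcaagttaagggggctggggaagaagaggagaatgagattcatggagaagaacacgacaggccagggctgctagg
Psmb8: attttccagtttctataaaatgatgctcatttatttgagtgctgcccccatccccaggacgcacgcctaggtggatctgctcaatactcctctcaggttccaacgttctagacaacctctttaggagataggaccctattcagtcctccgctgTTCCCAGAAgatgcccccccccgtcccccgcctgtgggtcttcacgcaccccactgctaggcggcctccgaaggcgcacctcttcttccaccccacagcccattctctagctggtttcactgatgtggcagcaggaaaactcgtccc

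These windows are chr2:122147437-122147736 on the plus strand for B2m, chr17:34000284-34000583 on the minus strand for H2-K1, chr17:35262844-35263143 on the plus strand for H2-D1, chr17:34187306-34187605 on the plus strand for Tap1 and chr17:34197945-34198244 on the plus strand for Psmb8. In H2-K1 the NF-kB letters matched at 2 overlapping positions, the first at base -125 from the start site, and in H2-D1 they matched at 2 overlapping positions, the first at -171. Each heavy chain window also held 2 CCAAT boxes, at -30 and -6 in H2-K1 and at -76 and -53 in H2-D1. B2m held ISRE letters at -139, NF-kB letters at -126 and a CCAAT box at -53. The window of Psmb8 held GAS letters at -97 and none of the other motifs. The windows of Tap1 and Psmb9, which are read in opposite directions, overlapped by 275 bases, and the CCAAT box of that stretch lies at -222 from the start of Tap1 and at -8 from that of Psmb9. The other RefSeq start of H2-K1 held the same motifs, Tapbp held 2 CCAAT boxes and Psmb10 none of the 4 motifs. These matches describe the letters in the windows. Only exact matches to the searched letters were marked, so an unmarked window may still hold an element that differs from them.

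Total counts ranged from 29049760 to 45813092 per library. The summed level of 12 markers of B cell precursors was 2832 to 3452 CPM, the unit of read counts scaled to the size of the library, and 11 of the 12 reached 1 CPM. The exception was Ebf1, a transcription factor of early B cells, at 0.0955 to 0.717 CPM. In dasatinib 16x against drug-free, 6 of these 12 markers fell and 0 rose, where 8.33% of all tested genes fell and 7.79% rose, and their part in the results was not tested. Markers of T and NK cells summed to 37.5 to 45.8 CPM over the 10 of 12 listed genes in the count table. Of these 10, 2 reached 1 CPM and 2 were at 0 in every library. Those of myeloid and dendritic cells summed to 7.20 to 11.4 CPM over 14 of 16 listed genes, with 2 at 1 CPM or more and 2 at 0. Those of stroma and endothelium summed to 47.8 to 59.8 CPM over 9 genes, with 2 at 1 CPM or more and 2 at 0. Erythroid markers summed to 17.0 to 27.2 CPM in dasatinib 16x, 4.64 to 5.43 CPM in dasatinib 1x, 35.6 CPM in DMSO 16x, 12.2 CPM in DMSO 1x and 5.24 to 5.66 CPM in the parental libraries. They are the 6 of 8 listed genes in the count table, of which 1, the globin gene Hbb-b1, reached 1 CPM. Because these are bulk libraries, fewer cells that express a gene and less of its RNA per cell cannot be told apart. The labels call the dasatinib libraries biological replicates and do not say whether the parental cells were cultured separately. The p-values therefore cover the spread among these samples alone, which may be technical. Between 2 libraries of the same group, the chi-square per degree of freedom of the counts is near 1 under counting noise alone. It was 3.07 to 16.4 in the dasatinib groups and 1.88 between the parental libraries. The source of this spread was not tested.

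Per kilobase of exon, B2m was the most abundant of the 10, at a mean of 383 CPM per kb over the 10 libraries. Psmb8 followed at 63.0, H2-D1 at 52.5, H2-K1 at 35.3, Psmb10 at 32.6, Tap2 at 26.8, Tapbp at 17.1, Tap1 at 14.0, Psmb9 at 9.87 and Nlrc5 at 5.53 CPM per kb. The library range of B2m (322 to 481 CPM per kb) lay above that of Psmb8 (48.0 to 76.7), and that of Tap2 (19.8 to 36.2) above that of Tapbp (15.4 to 18.5). All other neighbours in this order overlapped, down to Psmb9 (7.85 to 13.4) and Nlrc5 (3.55 to 8.94). Exon lengths came from the GENCODE vM21 annotation of GRCm38, whereas the counts were made on mm9. Each length joins the exons of all annotated transcripts of a gene. It was 3.66 kb for Psmb9, 3.38 kb for Psmb8 and 0.899 kb for Psmb5. The order of the genes and the size of ratios between genes depend on these lengths, so levels per kb are approximate. H2-K1 and H2-D1 resemble other class I genes: 6.87% of the 50-base words of H2-K1 and 11.0% of those of H2-D1 also occur in another of 13 class I genes compared. How reads of such stretches were assigned, and how well the cells' own MHC alleles match mm9, was not tested.

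The genes moved in 3 different ways. The heavy chains H2-K1 and H2-D1 and the transactivator Nlrc5 were highest in the DMSO 16x library and lowest in the dasatinib 1x libraries, and they spanned 5.44-fold, 3.81-fold and 2.51-fold between the highest and the lowest library. Tap2 and Psmb8 were highest in dasatinib 16x and lowest in DMSO 16x, with spans of 1.83-fold and 1.60-fold. B2m, Tap1 and Psmb9 had their highest library in dasatinib 16x, with DMSO 16x within or next to that group, with spans of 1.49-fold, 1.60-fold and 1.71-fold. Tapbp and Psmb10 spanned 1.20-fold and 1.21-fold.

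**Figure D1:**
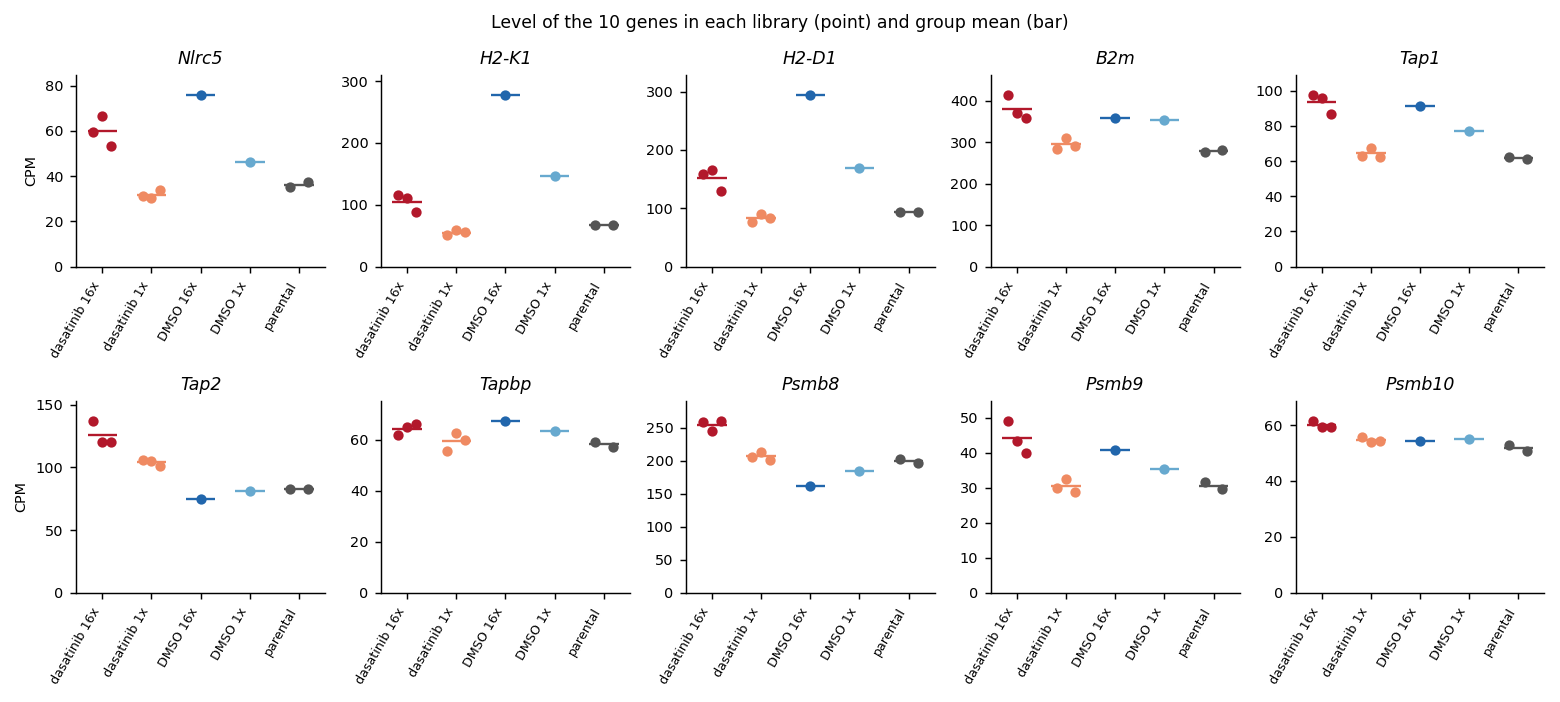
Level in CPM (y axis, from 0) of each of the 10 genes by group (x axis), one point per library and a bar at the group mean. H2-K1 stood at 277 CPM in DMSO 16x and at 51.0 to 58.5 CPM in dasatinib 1x, whereas Tap2 stood at 121 to 137 CPM in dasatinib 16x and at 74.8 CPM in DMSO 16x.

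The calls were few against the drug-free class. A gene is called when its p-value from the edgeR quasi-likelihood test, adjusted by Benjamini and Hochberg over all 12282 genes, is under 0.05, and log2 changes are given ± SE. In dasatinib 16x against drug-free, 3 of the 10 genes rose (Tap2, Psmb8 and Psmb10) and 0 fell, where 7.79% of all tested genes rose and 8.33% fell. In dasatinib 1x against drug-free, 1 of 10 rose (Tap2) and 0 fell, where 0.822% of all genes rose and 1.14% fell. In dasatinib 16x against dasatinib 1x, 1 of 10 rose (Tap2) and 0 fell, where 1.21% of all genes rose and 0.928% fell. The unadjusted p was under 0.05 for 6, 4 and 7 of the 10 genes in these comparisons, where it was so for 31.4%, 19.8% and 15.8% of all tested genes. The median log2 change of the 10 genes was 0.28, -0.14 and 0.45 in the same order, beside 0.00, -0.01 and 0.00 over all tested genes. Without the DMSO 16x library, 7 of the 10 genes rose in dasatinib 16x against the remaining drug-free libraries and 5 in dasatinib 16x against dasatinib 1x, and the genes that rose in the whole table numbered 1421 and 520, against 957 and 148 with that library. Without dasatinib 1x A, B or C, 0 of the 10 were called in dasatinib 1x against drug-free, and 18, 17 and 36 genes were called in the whole table, against 241 with all libraries.

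The counts of genes whose groups did not overlap were larger. Every dasatinib 16x library stood above every drug-free library for B2m, Tap2, Psmb8 and Psmb10, 4 of 10 genes, where this held for 14.3% of all genes, and below for 0 of 10, where it held for 14% of all. Every dasatinib 1x library stood above every drug-free library for Tap2, 1 of 10, against 12.5% of all genes, and below for Nlrc5, H2-K1 and H2-D1, 3 of 10, against 11% of all. Every dasatinib 16x library stood above every dasatinib 1x library for 9 of 10 genes, all but Tapbp, against 15.1% of all genes, and below for 0 of 10, against 15.5% of all. The drug-free class joins libraries that differ among themselves: the fit of 3 classes had a biological coefficient of variation of 15.3%, against 7.27% for a fit of all 5 groups. In the fit of 5 groups, the same 9 genes were called higher in dasatinib 16x than in dasatinib 1x, where 7.28% of all genes were higher and 6.31% lower.

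Against the parental libraries alone, in the fit of 5 groups, 9 of 10 genes rose in dasatinib 16x, all but Tapbp, and 0 fell, where 13.7% of all genes were higher and 12.8% lower. In dasatinib 1x against the parental libraries alone, 1 of 10 rose, Tap2, where 2.88% of all genes were higher and 2.88% lower. The single DMSO libraries gave further comparisons in that fit. In dasatinib 16x against DMSO 16x, 2 of 10 rose and 3 fell, where 18.9% of all genes rose and 16.8% fell. In dasatinib 1x against DMSO 1x, 2 of 10 rose and 5 fell, where 6.86% of all genes rose and 6.66% fell. In DMSO 16x against parental, 7 of 10 rose and 1 fell, where 14.7% of all genes rose and 16.2% fell. In DMSO 1x against parental, 4 of 10 rose and 0 fell, where 3.31% of all genes rose and 2.87% fell. In those comparisons the DMSO group is 1 library, whose spread is assumed to be that of the replicated groups. Several of these comparisons share libraries, so their results are not independent of each other.

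**Figure D2:**
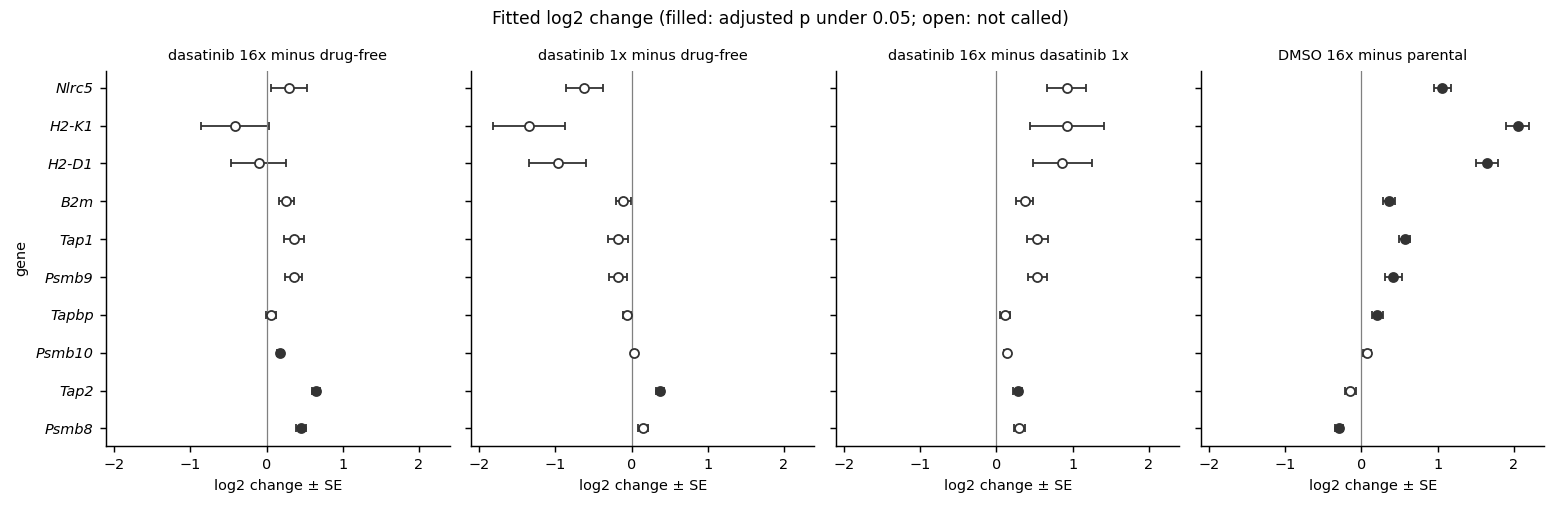
Log2 change ± SE (x axis) of each of the 10 genes (y axis) in 4 comparisons, filled where the adjusted p was under 0.05. In the first panel Tap2, Psmb8 and Psmb10 are called, and H2-K1 has a change of -0.41 with an SE of 0.45. In the last panel H2-K1 has a change of 2.05.

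The heavy chain H2-K1, which presents the peptide, had 115, 111 and 88.2 CPM in dasatinib 16x, 51.0, 58.5 and 55.7 CPM in dasatinib 1x, 277 CPM in DMSO 16x, 147 CPM in DMSO 1x and 67.2 and 66.5 CPM in the parental libraries. DMSO 16x was the highest library and the dasatinib 1x libraries were the lowest, below all others. H2-D1, the other classical heavy chain, had 159, 166 and 129 CPM in dasatinib 16x, 77.2, 89.3 and 82.5 CPM in dasatinib 1x, 294 CPM in DMSO 16x, 169 CPM in DMSO 1x and 94.0 and 93.4 CPM in the parental libraries. The groups of H2-D1 stood in the same order as those of H2-K1. In both genes the 3 dasatinib 16x libraries lay between the parental libraries and the library of DMSO 1x, without overlap.

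Against DMSO carried to the same step, both heavy chains fell under dasatinib. H2-K1 fell by 1.40 ± 0.14 on the log2 scale in dasatinib 16x against DMSO 16x (adjusted p = 0.000311) and by 1.42 ± 0.14 in dasatinib 1x against DMSO 1x (adjusted p = 0.00154). H2-D1 fell by 0.96 ± 0.14 at 16x (adjusted p = 0.00197) and by 1.02 ± 0.14 at 1x (adjusted p = 0.00534). Against the parental line, H2-K1 rose 4.15-fold in DMSO 16x (log2 change 2.05 ± 0.15, adjusted p = 0.000101) and 2.20-fold in DMSO 1x (1.14 ± 0.15, adjusted p = 0.0123). H2-D1 rose 3.14-fold in DMSO 16x (1.65 ± 0.15, adjusted p = 0.000271) and 1.80-fold in DMSO 1x (0.85 ± 0.15, adjusted p = 0.0282). Both calls for DMSO 1x were lost when either parental library was left out, with adjusted p of 0.0751 (without A) and 0.0858 (without B) for H2-K1 and 0.125 and 0.151 for H2-D1. That of H2-D1 was also lost without dasatinib 1x C (adjusted p = 0.0598).

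The direction of the heavy chains at dasatinib 16x depended on which drug-free libraries were used. Against all 4 drug-free libraries, neither was called (H2-K1 -0.41 ± 0.45, adjusted p = 0.579, and H2-D1 -0.11 ± 0.36, adjusted p = 0.882). Against the parental libraries alone, H2-K1 was higher by 0.65 ± 0.12 (adjusted p = 0.0105) and H2-D1 by 0.69 ± 0.12 (adjusted p = 0.00721). Against the DMSO libraries alone, H2-K1 was lower, with a log2 change of -0.95 ± 0.11 (adjusted p = 0.000903), and H2-D1 was lower at -0.56 ± 0.11 (adjusted p = 0.00901). At dasatinib 1x neither was called against all 4 drug-free libraries (H2-K1 -1.34 ± 0.47, adjusted p = 0.178, and H2-D1 -0.97 ± 0.37, adjusted p = 0.206) or against the parental libraries alone (H2-K1 -0.28 ± 0.12, adjusted p = 0.286, and H2-D1 -0.17 ± 0.12, adjusted p = 0.496). Both were lower at dasatinib 1x than in the DMSO libraries alone, with log2 changes of -1.87 for H2-K1 and -1.42 for H2-D1.

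The difference between the dose steps was of similar size with and without drug. Dasatinib 16x minus dasatinib 1x was 0.93 ± 0.49 for H2-K1 and 0.86 ± 0.39 for H2-D1 in the fit of 3 classes (adjusted p = 0.403 and 0.326), and 0.93 ± 0.11 and 0.86 ± 0.10 in the fit of 5 groups (adjusted p = 0.00281 and 0.00327). The change between the steps under dasatinib exceeded that under DMSO by 0.01 ± 0.21 for H2-K1 (adjusted p = 0.987) and by 0.06 ± 0.20 for H2-D1 (adjusted p = 0.923), where this difference was called higher for 5.37% and lower for 1.37% of all genes. Of the 10 genes, 2 were called higher in it, Tap2 and Psmb8. Of the erythroid markers, Hbb-b1 also had its highest group mean in DMSO 16x. Its means were 22.4 CPM in dasatinib 16x, 3.87 in dasatinib 1x, 34.4 in DMSO 16x, 11.2 in DMSO 1x and 4.22 in the parental libraries. The summed erythroid markers of dasatinib 1x (4.64 to 5.43 CPM) overlapped with those of the parental libraries (5.24 to 5.66 CPM). Of 3 tested erythroid markers, 1 had a positive log2 change in dasatinib 16x against dasatinib 1x and 3 in DMSO 16x against parental. The part of such markers in the heavy chain values was not tested.

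Nlrc5, the transactivator, had 59.6, 66.8 and 53.6 CPM in dasatinib 16x, 31.0, 30.2 and 33.9 CPM in dasatinib 1x, 75.9 CPM in DMSO 16x, 46.3 CPM in DMSO 1x and 35.2 and 37.4 CPM in the parental libraries. Its highest library was DMSO 16x, and its dasatinib 1x libraries lay below all others, as for the heavy chains. The dasatinib 16x libraries lay above DMSO 1x for Nlrc5, whereas for the heavy chains they lay below it. Nlrc5 rose in DMSO 16x against parental (1.06 ± 0.11, adjusted p = 6.58e-05), and its value in DMSO 1x was 0.35 ± 0.12 (adjusted p = 0.116). It fell by 0.34 ± 0.11 in dasatinib 16x against DMSO 16x (adjusted p = 0.0308) and by 0.55 ± 0.11 in dasatinib 1x against DMSO 1x (adjusted p = 0.00967). The call at 16x was lost without dasatinib 1x A (adjusted p = 0.0536) or dasatinib 16x A (adjusted p = 0.0552). The value in DMSO 1x was called without dasatinib 16x B (adjusted p = 0.0205) or C (adjusted p = 0.0341).

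Nlrc5 was not called in dasatinib 16x against all drug-free libraries (0.30 ± 0.24, adjusted p = 0.429). Without the DMSO 16x library it was called at 0.60 ± 0.11 (adjusted p = 0.00496), and against the parental libraries alone at 0.72 ± 0.09 (adjusted p = 0.00036). Its log2 difference between dasatinib 16x and dasatinib 1x was 0.92 ± 0.26 in the fit of 3 classes (adjusted p = 0.113) and 0.92 ± 0.08 in the fit of 5 groups (adjusted p = 8.39e-05). In dasatinib 1x it stood at -0.62 ± 0.24 against the drug-free libraries (adjusted p = 0.213).

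B2m, the light chain shared by all classical class I molecules, had 414, 370 and 358 CPM in dasatinib 16x, 284, 311 and 290 CPM in dasatinib 1x, 358 CPM in DMSO 16x, 354 CPM in DMSO 1x and 277 and 281 CPM in the parental libraries. Both DMSO libraries lay just below the lowest dasatinib 16x library, and the dasatinib 1x libraries lay just above the parental ones. B2m rose in DMSO 16x (0.36 ± 0.08, adjusted p = 0.00732) and in DMSO 1x (0.34 ± 0.08, adjusted p = 0.0388) against parental, and fell by 0.26 ± 0.08 in dasatinib 1x against DMSO 1x (adjusted p = 0.0485). The last call was lost in 7 of 13 alternatives, among them those without dasatinib 1x A or C (adjusted p = 0.111 each), dasatinib 16x B (0.0654), parental A (0.0831) or parental B (0.0782). That in DMSO 1x was lost without parental A (0.162), parental B (0.158) or dasatinib 1x C (0.0628). In dasatinib 16x its value was 0.26 ± 0.10 against the drug-free libraries (adjusted p = 0.111), or 0.32 ± 0.10 without the DMSO 16x library (adjusted p = 0.0438). It was 0.09 ± 0.08 against DMSO 16x (adjusted p = 0.419), and was higher by 0.45 ± 0.06 against the parental libraries alone (adjusted p = 0.000696).

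The light chain moved less than the heavy chains. The sum of both heavy chains per B2m, as a ratio of CPM per kb, was 0.213 ± 0.023 in dasatinib 16x (SD, n = 3), 0.148 ± 0.00447 in dasatinib 1x (SD, n = 3), 0.501 in DMSO 16x, 0.281 in DMSO 1x and 0.182 ± 0.00302 in the parental libraries (SD, n = 2). The dasatinib 1x libraries (0.143 to 0.151) lay below both parental libraries (0.180 and 0.184), the dasatinib 16x libraries (0.192 to 0.238) above them, and both DMSO libraries above all 8 others.

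**Figure D3:**
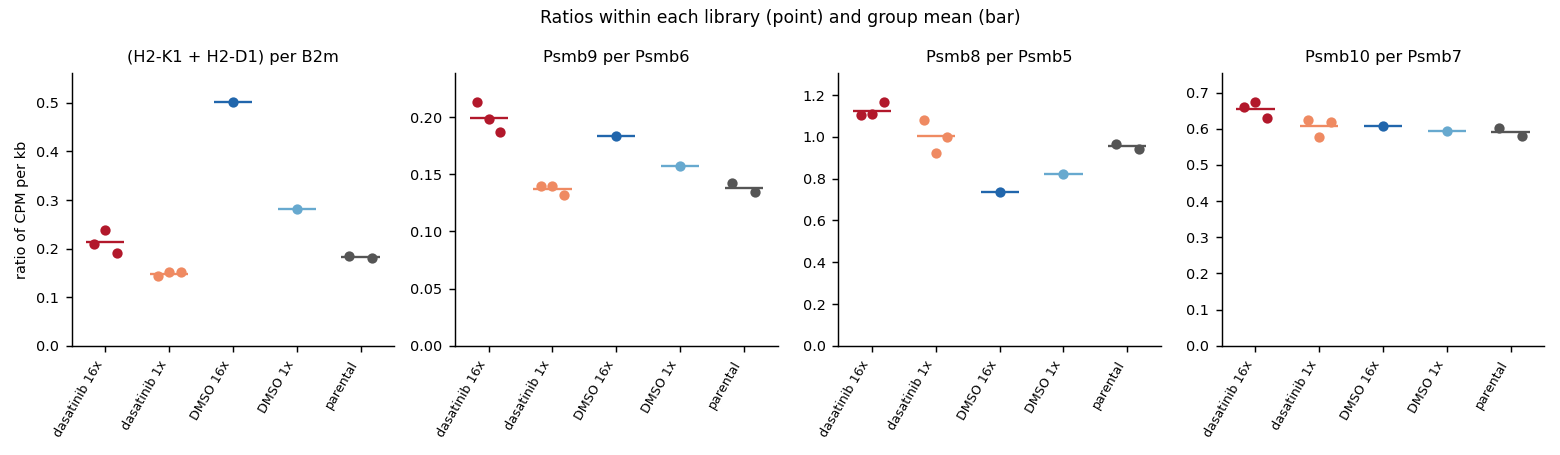
Ratios of CPM per kb within each library (y axis, from 0) by group (x axis): both heavy chains per B2m, and each immunoproteasome subunit per the standard subunit it replaces, with 1 point per library and a bar at the group mean. Heavy chains per B2m reached 0.501 in DMSO 16x, and Psmb8 per Psmb5 was lowest in that library at 0.737.

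Tap1, one chain of the peptide transporter, had 97.6, 95.8 and 86.8 CPM in dasatinib 16x, 63.2, 67.4 and 62.6 CPM in dasatinib 1x, 91.1 CPM in DMSO 16x, 77.1 CPM in DMSO 1x and 62.1 and 61.0 CPM in the parental libraries. DMSO 16x lay within the range of dasatinib 16x, and the dasatinib 1x libraries lay above both parental ones. Tap1 rose in DMSO 16x (0.57 ± 0.07, adjusted p = 7.33e-05) and in DMSO 1x (0.33 ± 0.07, adjusted p = 0.0213) against parental, and fell by 0.26 ± 0.07 in dasatinib 1x against DMSO 1x (adjusted p = 0.0237). The call in DMSO 1x was lost without parental A (adjusted p = 0.102) or parental B (adjusted p = 0.146), and that in dasatinib 1x without dasatinib 1x A (adjusted p = 0.066) or C (adjusted p = 0.0694). In dasatinib 16x its value was 0.36 ± 0.13 against the drug-free libraries (adjusted p = 0.0889) and 0.04 ± 0.07 against DMSO 16x (adjusted p = 0.731). Without the DMSO 16x library the value against the remaining drug-free libraries was 0.48 ± 0.09 (adjusted p = 0.00402).

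Tap2, the other chain of the transporter, had 137, 121 and 121 CPM in dasatinib 16x, 106, 105 and 101 CPM in dasatinib 1x, 74.8 CPM in DMSO 16x, 81.5 CPM in DMSO 1x and 82.9 CPM in each of the parental libraries. All 6 dasatinib libraries lay above all 4 drug-free libraries, and the dasatinib 16x libraries lay above the dasatinib 1x libraries. Tap2 was the one gene of the 10 that was called in all 3 comparisons of the fit of 3 classes. It rose in dasatinib 16x against drug-free (0.65 ± 0.05, 1.56-fold, adjusted p = 0.000247), in dasatinib 1x against drug-free (0.37 ± 0.05, 1.29-fold, adjusted p = 0.0137) and in dasatinib 16x against dasatinib 1x (0.28 ± 0.06, 1.21-fold, adjusted p = 0.0471).

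The call of Tap2 at 16x against drug-free held in all 18 alternatives, with adjusted p of at most 0.00243. The call at 1x was lost without dasatinib 1x A (adjusted p = 0.089), B (adjusted p = 0.0919) or C (adjusted p = 0.0575). The call between the dasatinib groups was lost in 10 of 16 alternatives, among them each one that left out a library other than DMSO 16x, with adjusted p up to 0.199 (without dasatinib 1x C). Tap2 also rose against DMSO at the same step, by 0.75 ± 0.07 at 16x (adjusted p = 6.98e-06) and by 0.35 ± 0.07 at 1x (adjusted p = 0.00596). In DMSO 16x its value against parental was -0.15 ± 0.07 (adjusted p = 0.155) and in DMSO 1x -0.02 ± 0.07 (adjusted p = 0.886). The change between the steps was larger under dasatinib than under DMSO by 0.40 ± 0.10 (adjusted p = 0.0304). That call was lost without any 1 of the dasatinib 1x libraries (adjusted p = 0.0567, 0.0533 and 0.0718 without A, B and C) and without parental A (0.0652) or B (0.0637). In DMSO 16x against parental, Tap2 was called without dasatinib 16x A (-0.14 ± 0.05, adjusted p = 0.0347).

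Tap1 and Tap2 did not keep a fixed ratio. Tap1 per Tap2, as CPM per kb, was 0.513 ± 0.0311 in dasatinib 16x (SD, n = 3), 0.427 ± 0.0153 in dasatinib 1x (SD, n = 3), 0.841 in DMSO 16x, 0.654 in DMSO 1x and 0.513 ± 0.00668 in the parental libraries (SD, n = 2). The dasatinib 16x libraries (0.493 to 0.549) overlapped with the parental ones (0.508 and 0.517), the dasatinib 1x libraries (0.412 to 0.442) lay below both, and both DMSO libraries lay above.

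Tapbp, which encodes the loading chaperone tapasin, had 62.0, 64.9 and 66.2 CPM in dasatinib 16x, 55.8, 62.9 and 59.8 CPM in dasatinib 1x, 67.2 CPM in DMSO 16x, 63.6 CPM in DMSO 1x and 59.3 and 57.3 CPM in the parental libraries. The dasatinib groups overlapped with each other and with the drug-free libraries. Its values were 0.06 ± 0.06 in dasatinib 16x against drug-free (adjusted p = 0.573), -0.06 ± 0.06 in dasatinib 1x against drug-free (adjusted p = 0.642) and 0.11 ± 0.07 in dasatinib 16x against dasatinib 1x (adjusted p = 0.457). It rose by 0.21 ± 0.07 in DMSO 16x against parental (adjusted p = 0.0455), a call that was lost with DESeq2 (adjusted p = 0.085) and without parental A (0.0921), parental B (0.178) or dasatinib 1x C (0.0601).

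Psmb8, an immunoproteasome subunit that takes the place of Psmb5, had 259, 245 and 259 CPM in dasatinib 16x, 206, 214 and 201 CPM in dasatinib 1x, 162 CPM in DMSO 16x, 184 CPM in DMSO 1x and 203 and 196 CPM in the parental libraries. Dasatinib 16x lay above all other libraries and DMSO 16x below all others, and the dasatinib 1x libraries overlapped with the parental ones. Psmb8 rose in dasatinib 16x against drug-free (0.45 ± 0.07, 1.37-fold, adjusted p = 0.00303) and against DMSO 16x (0.65 ± 0.05, 1.57-fold, adjusted p = 1.38e-06), and in dasatinib 1x against DMSO 1x (0.17 ± 0.05, adjusted p = 0.039). The first call held in all 18 alternatives, and the last was lost without dasatinib 1x A (adjusted p = 0.0836) or B (0.0817) and without parental A (0.0717) or B (0.0732).

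Psmb8 was the one gene of the 10 that fell in DMSO 16x against parental, by 0.30 ± 0.05 (adjusted p = 0.000932). Its change between the steps was larger under dasatinib than under DMSO by 0.48 ± 0.07 (adjusted p = 0.00175). Between dasatinib 16x and dasatinib 1x its log2 difference was 0.30 ± 0.07 in the fit of 3 classes (adjusted p = 0.0752) and 0.30 ± 0.03 in the fit of 5 groups (adjusted p = 0.000172). In dasatinib 1x against drug-free it was 0.15 ± 0.07 (adjusted p = 0.253).

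Psmb9, which takes the place of Psmb6 and shares its promoter stretch with Tap1, had 49.0, 43.5 and 39.9 CPM in dasatinib 16x, 30.0, 32.6 and 28.7 CPM in dasatinib 1x, 40.9 CPM in DMSO 16x, 35.5 CPM in DMSO 1x and 31.6 and 29.6 CPM in the parental libraries. DMSO 16x lay within the range of dasatinib 16x, and dasatinib 1x overlapped with the parental libraries. Psmb9 rose in DMSO 16x against parental (0.42 ± 0.11, adjusted p = 0.0157), a call lost without parental B (adjusted p = 0.09). Its value in dasatinib 16x against drug-free was 0.36 ± 0.11 (adjusted p = 0.0572), and without the DMSO 16x library it was 0.45 ± 0.09 (adjusted p = 0.00463). Its log2 difference between dasatinib 16x and dasatinib 1x was 0.54 ± 0.12 in the fit of 3 classes (adjusted p = 0.0584) and 0.54 ± 0.08 in the fit of 5 groups (adjusted p = 0.00105). In the fit of 3 classes it was called without DMSO 16x (adjusted p = 0.00495) or without parental B (adjusted p = 0.0476).

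Psmb10, which takes the place of Psmb7, had 61.3, 59.2 and 59.3 CPM in dasatinib 16x, 55.7, 53.8 and 54.4 CPM in dasatinib 1x, 54.4 CPM in DMSO 16x, 55.0 CPM in DMSO 1x and 52.9 and 50.6 CPM in the parental libraries. The dasatinib 16x libraries lay above all others by a small margin. Psmb10 rose in dasatinib 16x against drug-free (0.17 ± 0.04, 1.13-fold, adjusted p = 0.0156), a call lost without dasatinib 16x A (adjusted p = 0.0614). Against DMSO 16x its value was 0.14 ± 0.05 (adjusted p = 0.0649).

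Set against the standard subunits, the 3 immune subunits differed from each other. Psmb8 per Psmb5, as CPM per kb, was 1.13 ± 0.0338 in dasatinib 16x (SD, n = 3), 1.00 ± 0.0794 in dasatinib 1x (SD, n = 3), 0.737 in DMSO 16x, 0.825 in DMSO 1x and 0.955 ± 0.0183 in the parental libraries (SD, n = 2). Psmb9 per Psmb6 was 0.199 ± 0.0128 in dasatinib 16x, 0.137 ± 0.00428 in dasatinib 1x, 0.184 in DMSO 16x, 0.157 in DMSO 1x and 0.138 ± 0.00554 in the parental libraries. Psmb10 per Psmb7 was 0.654 ± 0.0229 in dasatinib 16x, 0.606 ± 0.0261 in dasatinib 1x, 0.607 in DMSO 16x, 0.593 in DMSO 1x and 0.591 ± 0.0156 in the parental libraries. DMSO 16x was thus the lowest library for Psmb8 per Psmb5 and came next after dasatinib 16x for Psmb9 per Psmb6.

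**Figure D4:**
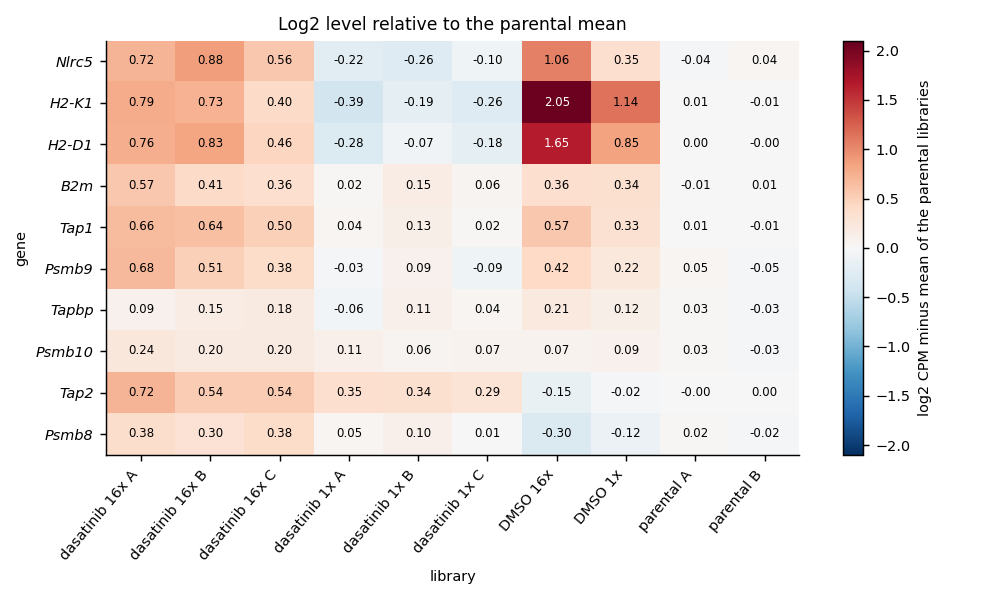
Log2 CPM of each of the 10 genes (down the page) in each library (across) minus the mean of the parental libraries, with the value printed in each cell. The heavy chains reached 2.05 and 1.65 in DMSO 16x, where Tap2 and Psmb8 stood at -0.15 and -0.30, while all 10 genes were above 0 in every dasatinib 16x library.

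Across the 10 libraries some of the genes moved alike, given here as a description over libraries that share groups and depth. Pearson's r of log2 CPM was 0.99 between H2-K1 and H2-D1, 0.98 between the neighbours Tap1 and Psmb9, 0.96 between B2m and Tap1 and 0.93 between the neighbours Psmb8 and Tap2. It was 0.96 between B2m and Psmb9. It was 0.87 between Nlrc5 and H2-K1, 0.93 between Nlrc5 and H2-D1 and 0.92 between Nlrc5 and Tap1. It was -0.31 between H2-K1 and Psmb8 and -0.27 between H2-K1 and Tap2. When the 10 genes were each standardised and averaged, the mean stood at 1.13, 0.93 and 0.72 SD in dasatinib 16x A, B and C, -0.75, -0.40 and -0.67 in dasatinib 1x A, B and C, 0.60 in DMSO 16x, 0.08 in DMSO 1x and -0.74 and -0.91 in parental A and B.

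The 10 genes themselves followed that mean unevenly. Pearson's r with it was 0.46 for Psmb8, 0.49 for Tap2, 0.69 for H2-K1 and 0.77 for H2-D1. It was 0.78 for Tapbp, 0.84 for Psmb10, 0.89 for Nlrc5, 0.97 for B2m, 0.98 for Psmb9 and 0.99 for Tap1. Over the same 10 libraries, the tested genes outside the set whose log2 CPM was most like that mean, predicted genes left out, were Lta (0.98), Cd82 (0.98), Neo1 (0.98), Dmwd (0.97) and Nfil3 (0.97). Lta, which encodes the cytokine lymphotoxin alpha, had 446, 353 and 369 CPM in dasatinib 16x, 131, 140 and 133 CPM in dasatinib 1x, 275 CPM in DMSO 16x, 191 CPM in DMSO 1x and 130 and 137 CPM in the parental libraries. Cd82, a tetraspanin, had 41.2, 35.1 and 37.5 CPM in dasatinib 16x, 15.1, 16.4 and 17.9 CPM in dasatinib 1x, 36.2 CPM in DMSO 16x, 22.7 CPM in DMSO 1x and 15.8 and 15.4 CPM in the parental libraries. In both genes the dasatinib 1x and parental libraries were the lowest and overlapped.

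The counts of the further lists stand beside the same shares of all tested genes: 7.79% rose and 8.33% fell in dasatinib 16x against drug-free, 0.822% rose and 1.14% fell in dasatinib 1x against drug-free, 1.21% rose and 0.928% fell in dasatinib 16x against dasatinib 1x, and 14.7% rose and 16.2% fell in DMSO 16x against parental. Over all tested genes the unadjusted p was under 0.05 for 31.4% in dasatinib 16x and 19.8% in dasatinib 1x against drug-free. Among 16 further genes of peptide supply (standard proteasome subunits, proteasome activators and cytosolic peptidases), 0 rose and 0 fell in dasatinib 16x or dasatinib 1x against drug-free, with medians of 0.00 and -0.03 on the log2 scale beside 0.00 and -0.01 over all tested genes. By edgeR the unadjusted p was under 0.05 for 3 and 2 of the 16. Among 13 genes of loading and trimming in the endoplasmic reticulum, 1 rose and 0 fell in dasatinib 16x (median 0.05). It was Pdia3, a disulphide isomerase of the loading complex, at 752 ± 43.7 CPM in dasatinib 16x (SD, n = 3) and 669 ± 23.8 CPM in the drug-free libraries (SD, n = 4), a log2 change of 0.17 ± 0.04 (adjusted p = 0.0323). In dasatinib 1x, 0 of the 13 were called, with 1 at an unadjusted p under 0.05.

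Of 27 other class I and class I-like genes, 24 were in the table and 10 were tested. In dasatinib 16x against drug-free 2 rose and 0 fell (median 0.04), and in dasatinib 1x 1 rose and 0 fell (median 0.06). Ulbp1, a ligand of the activating receptor NKG2D on natural killer cells, had 19.9 ± 2.20 CPM in dasatinib 16x (SD, n = 3), 17.5 ± 1.04 CPM in dasatinib 1x (SD, n = 3) and 8.30 ± 2.13 CPM in the drug-free libraries (SD, n = 4). It rose by 1.26 ± 0.17 in dasatinib 16x (adjusted p = 0.00227) and by 1.08 ± 0.17 in dasatinib 1x (adjusted p = 0.0231), and all 6 dasatinib libraries (16.9 to 21.4 CPM) lay above all 4 drug-free libraries (6.53 to 10.8 CPM). H2-T24 rose by 0.48 ± 0.14 in dasatinib 16x (adjusted p = 0.0449). In DMSO 16x against parental, 5 of the 10 rose and 2 fell. The non-classical genes H2-T23 and H2-M3, named after their values were seen, were among those that rose, by 0.70 ± 0.11 (adjusted p = 0.000502) and 0.69 ± 0.15 (adjusted p = 0.00329).

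Of 29 known or candidate regulators of class I transcription, 3 rose and 3 fell in dasatinib 16x against drug-free (median -0.03), and 0 were called in dasatinib 1x, where 6 had an unadjusted p under 0.05 by edgeR. All 6 changes were small. Creb1 fell by 0.14 ± 0.03 (adjusted p = 0.0152), the demethylase gene Kdm6a by 0.17 ± 0.04 (adjusted p = 0.0191) and Nfya, a CCAAT-binding factor, by 0.13 ± 0.03 (adjusted p = 0.0253), while the methyltransferase gene Ehmt2 rose by 0.13 ± 0.03 (adjusted p = 0.029). The others that rose, named after their values were seen, were Stat2, by 0.17 ± 0.05 (adjusted p = 0.0433), and Kdm6b, by 0.16 ± 0.05 (adjusted p = 0.0487). Nfya was also called in dasatinib 16x against dasatinib 1x, with a fall of 0.16 ± 0.03 (adjusted p = 0.0489). Irf1, a transcription factor that relays the interferon gamma signal to class I genes and is named after its values were seen, was not called in dasatinib 16x against drug-free, with a change of -0.03 ± 0.10 (adjusted p = 0.889). In DMSO 16x against parental 9 of the 29 regulators rose and 5 fell (median 0.07), and Irf1 was among those that fell, by 0.33 ± 0.11 (adjusted p = 0.0431).

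Of 12 tested genes of interferon and TNF reception and its feedback, 2 rose and 1 fell in dasatinib 16x against drug-free (median 0.09), 0 were called in dasatinib 1x, where 7 had an unadjusted p under 0.05 by edgeR, and 1 rose and 1 fell in dasatinib 16x against dasatinib 1x. Socs1, a feedback inhibitor of JAK kinases, had 23.4 ± 0.694 CPM in dasatinib 16x (SD, n = 3), 12.4 ± 0.664 CPM in dasatinib 1x (SD, n = 3) and 14.1 ± 0.893 CPM in the drug-free libraries (SD, n = 4). It rose by 0.73 ± 0.07 against drug-free (adjusted p = 0.000287) and by 0.91 ± 0.07 against dasatinib 1x (adjusted p = 0.00294), and DMSO 16x stood at 13.5 CPM. Ifngr1, a chain of the interferon gamma receptor, rose by 0.38 ± 0.07 in dasatinib 16x against drug-free (adjusted p = 0.00664), and Ifnar1, a chain of the type I interferon receptor, fell by 0.32 ± 0.04 (adjusted p = 0.000813).

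Of 31 tested interferon-induced genes, 3 rose and 2 fell in dasatinib 16x against drug-free (median 0.18), 0 rose and 2 fell in dasatinib 1x (median -0.14), and 1 rose and 0 fell in dasatinib 16x against dasatinib 1x (median 0.32). Oas3, an antiviral synthetase, rose by 2.42 ± 0.31 in dasatinib 16x against drug-free (adjusted p = 0.00137) and was low in every group, at 0.920 ± 0.116 CPM in dasatinib 16x (SD, n = 3) and 0.173 ± 0.0733 CPM in the drug-free libraries (SD, n = 4). The GTPase gene Igtp rose by 0.63 ± 0.11 (adjusted p = 0.00484) and Irgm2 by 0.67 ± 0.14 (adjusted p = 0.0122). Ddx58, the RNA sensor RIG-I, fell by 0.89 ± 0.18 in dasatinib 16x (adjusted p = 0.0122) and by 1.28 ± 0.19 in dasatinib 1x (adjusted p = 0.0137), and Trim25, which activates that sensor, fell by 1.02 ± 0.26 in dasatinib 16x (adjusted p = 0.0267) and fell by 1.58 ± 0.26 in dasatinib 1x (adjusted p = 0.0256). In DMSO 16x against parental 7 of the 31 rose and 9 fell, with a median of -0.12 beside -0.01 over all tested genes.

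Of 8 tested class II genes, 3 rose and 0 fell in dasatinib 16x against drug-free (median 0.23), 0 were called in dasatinib 1x (median -0.69), where 4 had an unadjusted p under 0.05 by edgeR, and 1 rose and 0 fell in dasatinib 16x against dasatinib 1x (median 1.33). Cd74, the invariant chain, had 63.9 ± 7.93 CPM in dasatinib 16x (SD, n = 3), 22.6 ± 1.94 CPM in dasatinib 1x (SD, n = 3) and 25.6 ± 7.99 CPM in the drug-free libraries (SD, n = 4), and rose by 1.32 ± 0.21 in dasatinib 16x against drug-free (adjusted p = 0.00404). H2-DMb1 and H2-DMb2, which encode chains of the class II peptide exchanger, rose by 1.13 ± 0.26 (adjusted p = 0.0193) and 1.25 ± 0.34 (adjusted p = 0.0367).

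**Figure D5:**
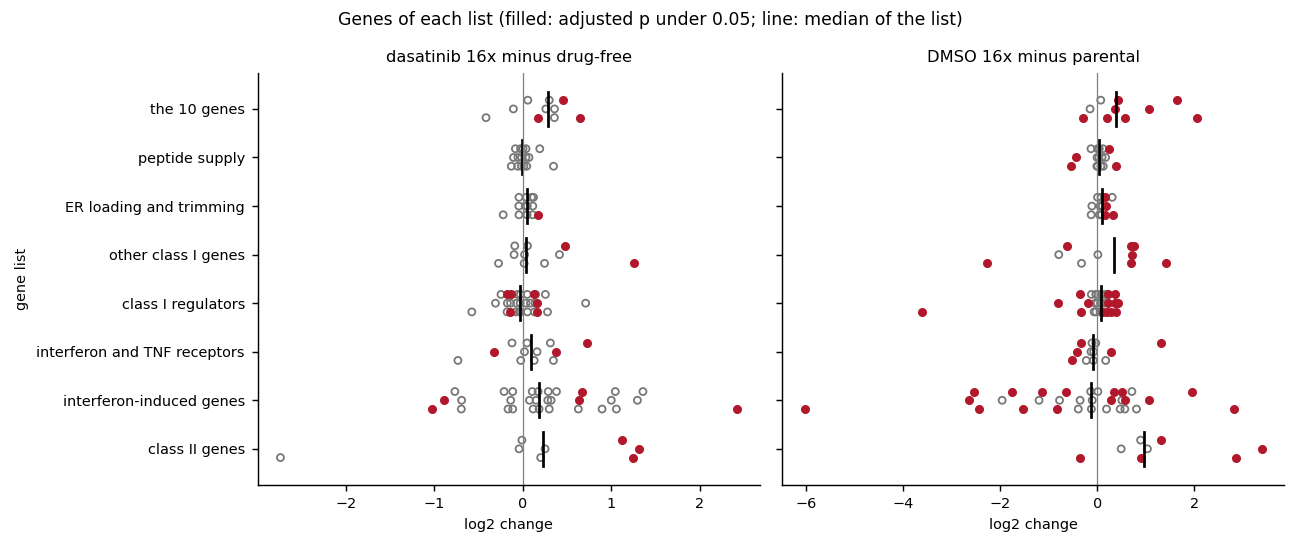
Log2 change (x axis) of each tested gene of the 10 class I genes and of 7 further lists (y axis), in dasatinib 16x against drug-free and in DMSO 16x against parental, filled where the adjusted p was under 0.05, with a line at the list's median. The median of the 10 genes was 0.28 in the first panel and 0.39 in the second, and that of the interferon-induced genes was 0.18 and -0.12.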

How the data were processed

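Whole-transcriptome sequencing was done on 10 libraries. The deposited values are read counts per gene, unnormalized, as their whole numbers and differing totals show. The submitters' processing notes name CASAVA 1.7.0, Trimmomatic 0.33, TopHat2 2.0.12, BWA 0.7.10, SAMtools, HTSeq 0.6.1, DESeq and the mm9 build. The annotation and whether counting used the strand are not given in the sources used here. Whether reads of genes that overlap on opposite strands were told apart is therefore not known.

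Counts were tested in R 4.3.3 with edgeR 4.0.16, using TMM scaling, filterByExpr (minimum count 10) and the robust quasi-likelihood test, with Benjamini-Hochberg adjustment over 12282 genes and a threshold of 0.05. At least 99.96% of each library's counts fell in these genes. A fit of 3 classes (dasatinib 1x, dasatinib 16x, drug-free; 7 residual degrees of freedom) gave the 3 dasatinib comparisons, and a fit of 5 groups (5 residual degrees of freedom) gave the 5 others. CPM used TMM-scaled totals, and log2 CPM a prior count of 2. Alternatives were other scaling, no filter, DESeq2 1.42.0, limma-voom (limma 3.58.1), a replicate block, other reference libraries and leaving out each library. The class I genes were counted in every comparison. Values of called and uncalled class I genes were given, though not for each gene in each comparison. From each further list, the called genes with the smallest p were named, at most 4 per list in dasatinib 16x and in dasatinib 1x against drug-free. For dasatinib 16x against dasatinib 1x, Socs1 and Nfya were named and the other called genes of these lists were given as counts. Further genes, among them Stat2, Kdm6b, Irf1, H2-T23, H2-M3 and the dasatinib 16x value of Trim25, were named after their values were seen. The genes and lists were chosen with earlier results of these data known. The genes most like the set were the 5 with the highest Pearson correlation, with predicted genes (symbols of the Gm or Rik kind) left out.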

Additional observations from a re-analysis of the deposited data

Results flagged for a closer look

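For Tap2 and Psmb8 the change from step 1x to step 16x differed between dasatinib and DMSO by the test of the difference itself in edgeR. It was larger under dasatinib by 0.40 ± 0.10 on the log2 scale for Tap2 (adjusted p = 0.0304) and by 0.48 ± 0.07 for Psmb8 (adjusted p = 0.00175). Tap2 had 126 ± 9.30 CPM in dasatinib 16x and 104 ± 2.61 CPM in dasatinib 1x (SD, n = 3 each), against 74.8 CPM in DMSO 16x and 81.5 CPM in DMSO 1x. Psmb8 had 255 ± 7.90 CPM in dasatinib 16x and 207 ± 6.38 CPM in dasatinib 1x (SD, n = 3 each), against 162 CPM in DMSO 16x and 184 CPM in DMSO 1x. All 3 dasatinib 16x libraries lay above the dasatinib 1x libraries for both genes, and DMSO 16x lay below DMSO 1x. The DMSO side of the difference rests on 1 library per step. The call for Tap2 was lost without any 1 of the dasatinib 1x or parental libraries, with adjusted p of 0.0533 to 0.0718, and that for Psmb8 held in all 12 alternatives, with adjusted p of at most 0.00688.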

How the results depend on the processing

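Of 1160 values of the 10 genes under alternatives, 1043 kept their side of the threshold, of which 20 were uncalled values that changed sign. A further 51 lost the call and 64 gained one with the same sign, and 2 changed sign and were called, H2-K1 at 0.65 and H2-D1 at 0.69 in dasatinib 16x against the parental libraries alone. Counts are given as class I genes called, then all genes called.
For dasatinib 1x against drug-free (1 and 241), DESeq2 called 853 genes, limma-voom 150, the parental libraries alone 708, the DMSO libraries alone 8 and 4149, and the fit of 5 groups 7 and 3449. Leaving out 1 library gave 0 to 1 and 17 to 516.
For dasatinib 16x against drug-free (3 and 1980), DESeq2 called 5 class I genes, the fit of 5 groups 8 and 4542, the parental libraries alone 9 and 3252, and the DMSO libraries alone 6 and 4518. Leaving out 1 library gave 2 to 7 and 1005 to 2765.
For dasatinib 16x against dasatinib 1x (1 and 262), DESeq2 called 6 and 805, limma-voom 0 class I genes, and the fit of 5 groups 9 and 1669. Leaving out 1 library gave 0 to 5 and 41 to 978.
Leaving out 1 library gave 4 to 7 and 1226 to 2265 in dasatinib 1x against DMSO 1x (7 and 1661), and 4 to 5 and 3873 to 4870 in dasatinib 16x against DMSO 16x (5 and 4382). It gave 0 to 5 and 110 to 1410 in DMSO 1x against parental (4 and 758), 6 to 9 and 2582 to 4541 in DMSO 16x against parental (8 and 3796), and 1 to 4 and 538 to 1248 in the difference of step changes (2 and 828). The cause of these shifts was not tested. Leaving out 1 library also lowers the number of samples, and the part of that was not tested either.
Same-lettered libraries did not deviate together beyond 0.1: the pairing check gave r of 0.0647, 0.0273 and 0.0517 between dasatinib 1x and 16x for letters A, B and C, although each such library correlated best with its own letter. With the replicate block, 0 class I genes and 54 genes in all were called in dasatinib 1x against drug-free (Tap2 was at 0.35, adjusted p = 0.0601), 6 class I genes in dasatinib 16x against drug-free, and 5 and 408 in dasatinib 16x against dasatinib 1x. In this block the DMSO libraries, which have no letter, formed a level of their own. The blocked drug-free reference therefore rested on the parental libraries alone. At dasatinib 16x, Tap1 stood at 0.64 with the block, 0.60 against the parental libraries alone and 0.36 against all drug-free libraries. A block was not possible for comparisons with a single DMSO library.
Depth was 29049760 to 45813092 counts per library. The limits are the single DMSO library per step, the joining of unlike drug-free libraries, the mm9 sequence of the heavy chains and counts without a stated strand.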
